A study of Mus musculus with 4 samples.

Results

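The arterial and venous Notch programme was read here as 10 named genes, of 24421 genes in the count table, in cultured mouse lung endothelial cells (ECs) with and without induced deletion of the RNA-editing gene Adar (ADAR1). The genes were taken by symbol. They comprised the receptor Notch1, its ligand Dll4, the Notch targets Hey1 and Hes1, the arterial genes Efnb2, Gja4, Gja5 and Sox17, and the venous genes Nr2f2 and Ephb4. ECs came from the lungs of 2 male inducible ADAR1 knockout mice of strain C57/BL6, aged 2 weeks, from separate litters. They were selected with beads for surface proteins of endothelium and grown in culture, and the cells of each mouse were split. A dish of each mouse received 4-OH-tamoxifen (TM), which switches on Cre, and the other was left untreated (CON). The mice are called EC1 and EC2, each giving 1 CON and 1 TM library, so every group held 2. All 4 libraries came from cells of the knockout model, whose Cre line is not given in the sources used here, and the comparison held no wild-type cells treated with TM, so the drug and the deletion cannot be told apart.

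Notch receptors are cut after a ligand on a neighbouring cell binds them, and the released intracellular part joins the DNA-binding protein RBPJ to switch on genes of the Hes and Hey families. In endothelium, VEGF input and DLL4 to NOTCH1 signalling favour the arterial programme, in which cells carry ephrin-B2 and the connexins 37 and 40 (Gja4 and Gja5). The nuclear receptor COUP-TFII (Nr2f2) holds this programme back in veins, where cells carry the ephrin-B2 receptor EPHB4. COUP-TFII is also needed, with PROX1, for lymphatic endothelium.

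Each gene was read in 2 ways. The first was the deposited read-pair count on the gene. Counts on genes were 1095488 to 1778732 per library, or 0.823% to 0.858% of each count table, and a count of 0 allows up to 2.74 CPM, the usual scaling of counts to library size, here to the counts on genes. The library kit marks strand and the counting used default settings, which assume that the first read lies on the strand of the gene. Where a kit places it on the other strand, such counts hold antisense reads, and which strand the counts here hold was not tested. A higher or lower count below is therefore a statement on these counts, and depth is given beside it. The second was the depth, the number of reads over a base, at the A-to-G sites (T-to-C for genes on the minus strand) in the deposited site table. It was taken as the median over a gene's exonic sites and scaled per 100000000 reads of the count table. A site is listed in a library only if at least 1 altered read was called there, so a gene with no listed site has no known depth, which differs from a depth of 0. Depth is per base and was used to compare genes with each other.

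The targeted gene was checked first. In exons 12 to 14 of Adar, within the floxed part, EC1 CON and EC2 CON had 3 and 1 listed sites with a median depth of 145 and 169. EC1 TM listed none there and EC2 TM listed 2, with a median depth of 65.5. In exons 2 to 11 the median depth was 153 and 175 in CON against 664 and 967 in TM. Over the whole gene, scaled exonic depth was 109 and 121 in CON against 485 and 453 in TM (log2 fold change 2.03 ± 0.28 SE, limma adjusted p = 0.000184). Adar was thus higher in TM over the gene as a whole. Over exons 12 to 14 EC2 TM was shallower than EC2 CON. It was also shallower there than over its own exons 2 to 11 (65.5 against 967), while in each CON library both parts were close. The depth of EC1 TM over exons 12 to 14 is not known. The study reported loss of the floxed exons from the aligned reads and almost complete loss of ADAR1 protein after TM. Endothelial markers were abundant. The summed scaled depth of the 12 was 21020 and 26477 in CON and 17215 and 18509 in TM. The 7 lymphatic markers summed to 8899 and 12283 in CON and 7097 and 7379 in TM, and Lyve1, at 4151 to 6194, was as deep as the endothelial cadherin gene Cdh5, at 4401 to 5316. Leukocyte markers (9 genes) summed to 20.9 to 36.8 and epithelial markers (8 genes) to 30.7 to 54.6. Of these, Ptprc, Adgre1, Itgam, Cd3e, Epcam, Cdh1, Sftpc, Nkx2-1 and Foxj1 had no listed site in any library. Smooth muscle and pericyte markers (10 genes) summed to 233 and 491 in CON and 99.4 and 157 in TM. Fibroblast markers (8 genes) summed to 2290 and 2512 in CON and 856 and 851 in TM, most of it Thy1. Of this list Lum and Tcf21 had no listed site in any library, while Dcn was at 92.9 to 311. Which cells the Thy1 RNA came from was not tested.

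The venous pair was the deepest of the 10 genes. Averaged over the libraries that listed them, scaled exonic depths were 794 for Ephb4 and 773 for Nr2f2, then 271 for Efnb2, 260 for Notch1 and 159 for Hes1. Gja4 followed at 47.9, Hey1 at 31.1, Dll4 at 16.0, Sox17 at 10.6 and Gja5 at 8.01. The last 5 rested on 1 to 3 listed sites per library and were each unlisted in at least 1 library (Sox17 in both CON libraries, and Gja5 in all but EC2 CON), so their order is not settled. Ephb4 (675 to 952) and Nr2f2 (524 to 1073) overlapped, as did Efnb2 (244 to 311) and Notch1 (226 to 305). Every library of the venous pair lay above every library of Efnb2 and Notch1, and these in turn above every library of Hes1 (114 to 204). In CON, Ephb4 and Nr2f2 stood at the 95.9th and 95.8th percentile of 10719 genes with exonic depth in both CON libraries. Notch1 stood at 84.3, Efnb2 at 83.7, Hes1 at 71.1, Gja4 at 42.8, Hey1 at 26.8 and Dll4 at 17.1. This order is of the 10 genes and does not name the vessel type of the culture. Other venous genes lay on both sides, with Selp at 1056 to 1370 and Vwf at 3.79 to 9.75. RNA of a bulk culture does not tell fewer cells of a type from less RNA per cell.

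**Figure D1:**
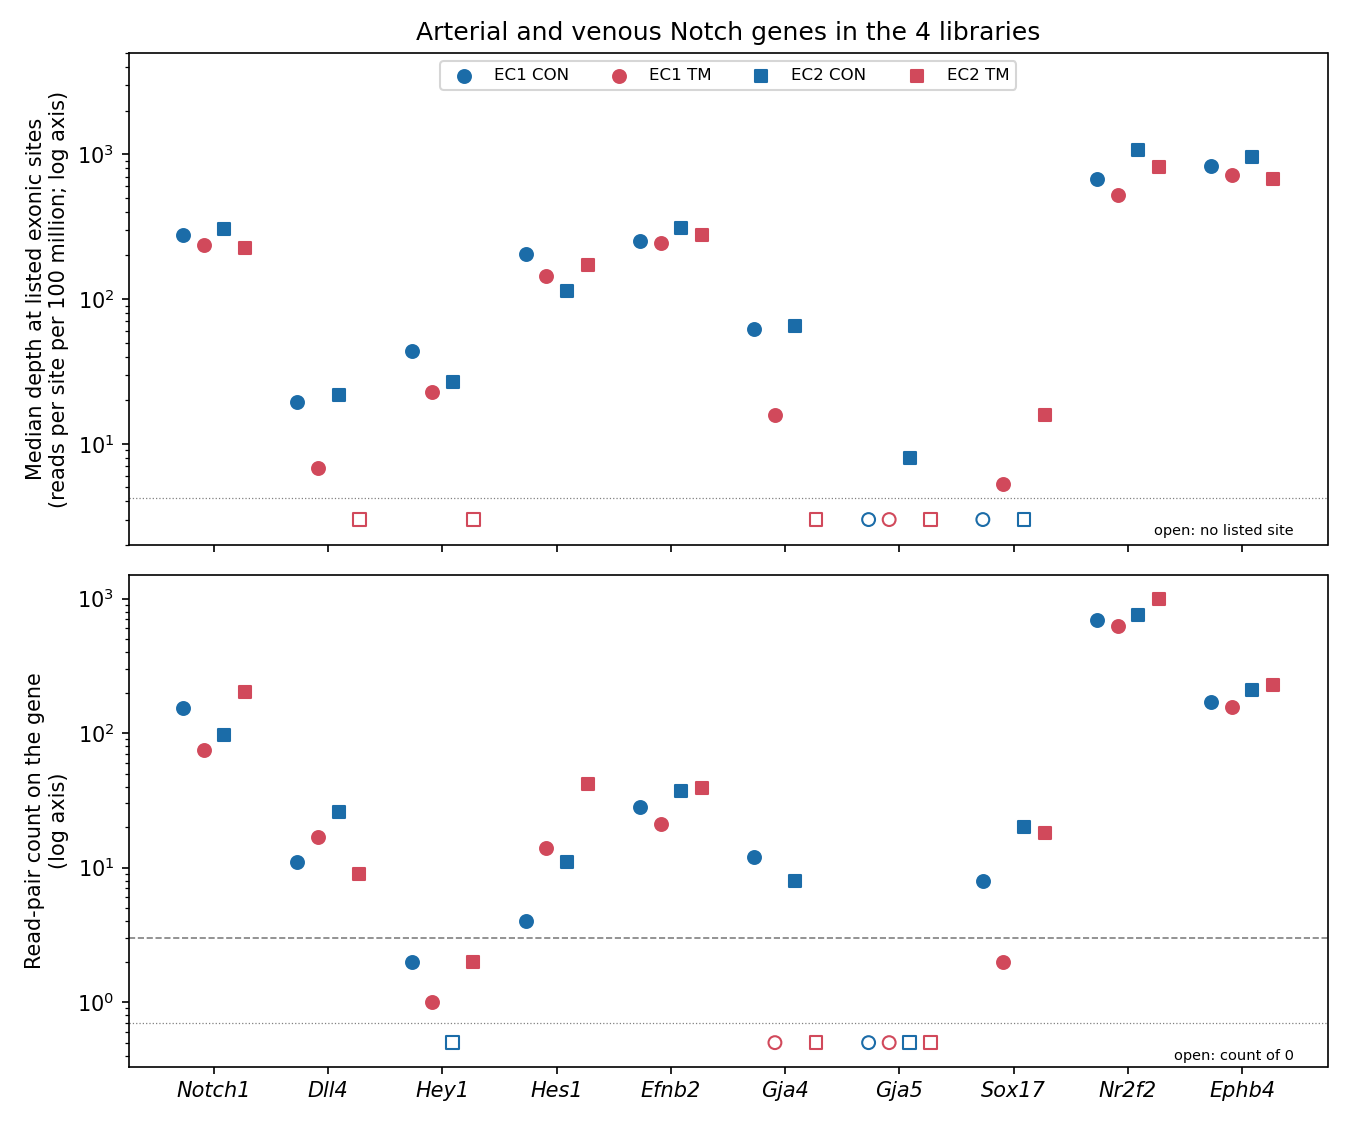
The 10 genes by library, with scaled median exonic depth (upper panel, reads per site per 100000000 reads of the count table, log axis) and read-pair counts (lower panel, log axis, dashed line at 3 counts). Circles are mouse EC1, squares mouse EC2, blue CON and red TM, and open symbols under the dotted line mark a gene with no listed site or a count of 0. Nr2f2 and Ephb4 are highest in the upper panel, Nr2f2 is highest in the lower panel, and Gja4 has counts in CON alone.

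No gene of the programme passed the test between TM and CON by counts with the filter on low values or by depth. By counts, edgeR tested 7 of the 10 (all but Hey1, Gja4 and Gja5, which were under the filter) and called 0 at an adjusted p of 0.05, where 7.75% of 7899 genes were called. At an unadjusted p under 0.05 it gave 1, Hes1, and DESeq2 called 0 of the 8 to which it gave an adjusted p, with 1 at an unadjusted p under 0.05, Gja4. By exonic depth, limma tested 5 (Notch1, Hes1, Efnb2, Nr2f2 and Ephb4) and called 0, with 0 at an unadjusted p under 0.05, where 9.76% of 6836 genes were called. The other 5 had fewer than 3 listed sites in at least 1 library. Of all genes called by exonic depth, 355 were higher and 312 lower in TM. With each library centred on its median these were 468 and 713, while 0 of the 5 were called as well.

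Notch1 (chr2:26457903-26516663, minus strand), the main Notch receptor of arterial endothelium, had a scaled exonic depth of 276 in EC1 CON and 305 in EC2 CON, over 66 and 70 listed sites. In EC1 TM and EC2 TM it was 234 and 226, over 69 and 73 sites. Both TM libraries lay below both CON libraries, by a log2 fold change of -0.33 ± 0.28 SE that did not pass the test (limma adjusted p = 0.524). Of its 333 sites in any region 0 were listed in all 4 libraries, so these medians were not taken over the same bases. Counts were 153 and 97 in CON and 75 and 201 in TM. The mice differed in direction by counts, since CPM in TM was 0.490 times that of CON in EC1 and 1.42 times in EC2 (edgeR log2 fold change -0.29 ± 0.33 SE, adjusted p = 0.700). Without EC1 CON or EC1 TM the fitted change by counts was 0.038 or 0.031.

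Dll4 (chr2:119325784-119335962, plus strand), the arterial Notch ligand, was shallow in the 3 libraries that listed it. Its scaled exonic depth was 19.5 in EC1 CON over 2 sites and 21.6 in EC2 CON over 3 sites, and 6.83 in EC1 TM at a single site, with none listed in EC2 TM. Counts were 11 and 26 in CON and 17 and 9 in TM, so the groups overlapped. The edgeR log2 fold change was -0.78 ± 0.59 SE (adjusted p = 0.514) and it ranged from -1.69 without EC1 TM to -0.0031 without EC2 CON.

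Among the direct Notch targets, Hes1 (chr16:30064384-30067796, plus strand), a transcriptional repressor, was split between the readouts. Counts were 4 and 11 in CON and 14 and 42 in TM, which is 3.65 and 9.0 CPM against 12.8 and 23.6 CPM, and the groups did not overlap. The edgeR log2 fold change was 1.45 ± 0.60 SE, which did not pass the test (adjusted p = 0.146). With the mouse as a block the adjusted p was 0.0831. Scaled exonic depth was 204 and 114 in CON and 145 and 172 in TM, over 4 to 7 sites, with both TM values between the CON values. By exonic depth its log2 fold change was 0.05 ± 0.32 SE (limma adjusted p = 0.947), and -0.022 with libraries centred on their median. Hey1 (chr3:8663359-8667256, minus strand), the other repressor of this class, had counts of 2 and 0 in CON and 1 and 2 in TM, all at or under 3 counts. Its scaled exonic depth was 43.6 and 26.8 in CON and 22.8 in EC1 TM, with no site listed in EC2 TM. Hey1 was under the filter on low counts and had too few listed sites for a test of depth. With no filter edgeR did not call it (log2 fold change 0.23 ± 2.15 SE, adjusted p = 0.977).

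Efnb2 (chr8:8617434-8661242, minus strand), the arterial ephrin ligand, differed little. Its scaled exonic depth was 252 and 311 in CON and 244 and 276 in TM, over 29 to 62 sites, and the groups overlapped. The log2 fold change was -0.11 ± 0.29 SE (limma adjusted p = 0.867). Counts were 28 and 37 in CON and 21 and 39 in TM. As CPM these were 25.6 and 30.3 against 19.2 and 21.9, with TM below CON (edgeR log2 fold change -0.50 ± 0.42 SE, adjusted p = 0.566).

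Gja4 (chr4:127311421-127314039, minus strand), which encodes the arterial gap-junction protein connexin 37, showed the clearest separation. Counts were 12 in EC1 CON and 8 in EC2 CON, and 0 in both TM libraries. The mean of 8.75 CPM in CON was 3.96 times the mean of 2.21 CPM that 3 counts in each TM library would give. This ratio takes the CON mean as exact, without the error of counts of 12 and 8, so it is not a lower bound. Gja4 was under the filter on low counts. With no filter edgeR called it (adjusted p = 0.00289), where 3.69% of 17237 genes were called. DESeq2 gave an adjusted p of 0.0568, and none with the mouse as a block. In fits with the filter, Gja4 was tested without EC1 TM or without EC2 TM, where edgeR gave an adjusted p of 0.146 and 0.205, and it was under the filter without either CON library. The scaled exonic depth was 62.4 and 65.5 in CON, at 3 listed sites in each library. In EC1 TM it was 15.9 at 1 site. EC2 TM, which was the library with the most reads and the most listed sites (431151), listed none. Gja4 was therefore lower in TM in both mice by counts and in EC1 by depth. Its depth could not be tested.

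The bases before the Gja4 start are given because it had the lowest TM counts relative to CON among the 10. RefSeq (GRCm38.p6) holds an upstream window for 7 of the 10 genes (Notch1, Dll4, Efnb2, Gja4, Gja5, Nr2f2 and Ephb4). The core word read by RBPJ, TGGGAA, was searched on both strands (TTCCCA on the other) in the 250 bases before each start. Of the 7 genes 0 held it, against 21.59% of 32841 windows of that length, and this says only that these letters are not in these windows. The Gja4 window, chr4:127314040-127314289 on the minus strand, reads as follows.
Gja4 upstream: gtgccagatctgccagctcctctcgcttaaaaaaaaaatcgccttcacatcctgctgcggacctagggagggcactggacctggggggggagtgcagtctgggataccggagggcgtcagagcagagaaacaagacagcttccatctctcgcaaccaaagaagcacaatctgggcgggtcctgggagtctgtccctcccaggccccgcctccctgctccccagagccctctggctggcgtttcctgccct

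Gja5 (chr3:96904693-97077416, plus strand), for the arterial connexin 40, had counts of 0 in all 4 libraries. A pair of sites was listed in EC2 CON alone, at a scaled depth of 8.01. Sox17 (chr1:4490931-4497354, minus strand), an arterial transcription factor, had counts of 8 and 20 in CON and 2 and 18 in TM, and the groups overlapped. Its log2 fold change by counts was -0.94 ± 0.68 SE (edgeR adjusted p = 0.477), and it ranged from -2.75 to -0.15 over the libraries left out. Exonic sites of Sox17 were listed in TM alone, 1 in each library, at scaled depths of 5.31 and 15.9.

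Nr2f2 (chr7:70351944-70366735, minus strand), the venous nuclear receptor COUP-TFII, had the highest counts of the 10. They were 689 and 750 in CON and 630 and 988 in TM, or 629 and 614 CPM against 575 and 555 CPM. Both TM libraries were below both CON libraries, by a log2 fold change of -0.20 ± 0.28 SE (edgeR adjusted p = 0.770). Scaled exonic depth was 675 and 1073 in CON and 524 and 822 in TM, over 36 to 80 sites. Within each mouse TM was lower, by a log2 ratio of -0.37 in EC1 and -0.38 in EC2. The size differed by region. In EC1 the ratio was -0.035 at sites outside the UTRs and -0.99 at 3′ UTR sites, and in EC2 it was -0.27 and -0.40. The groups overlapped because EC2 lay above EC1 in both conditions (limma log2 fold change -0.38 ± 0.33 SE, adjusted p = 0.543). At the 1 site listed in all 4 libraries, a single base, the fitted log2 fold change was -0.017. Over the libraries left out it ranged from -0.71 without EC1 CON to -0.041 without EC2 CON.

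Ephb4 (chr5:137350109-137378669, plus strand), the receptor of ephrin-B2 on venous endothelium, had scaled exonic depths of 825 and 952 in CON and 722 and 675 in TM, over 75 to 103 sites. Counts were 169 and 210 in CON and 157 and 228 in TM, or 154 and 172 CPM against 143 and 128 CPM. In both readouts the TM libraries lay below the CON libraries. The log2 fold change was -0.34 ± 0.28 SE by exonic depth (limma adjusted p = 0.517) and -0.33 ± 0.30 SE by counts (edgeR adjusted p = 0.599). Over the programme, 2 of the 5 genes tested by exonic depth (Notch1 and Ephb4) had TM libraries wholly below CON and 0 had them above. For all genes these shares were 25.1% and 27.2%. By counts 3 of 7 (Efnb2, Nr2f2 and Ephb4) lay below and 1 (Hes1) above, where 21.4% and 27.6% of all genes did.

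**Figure D2:**
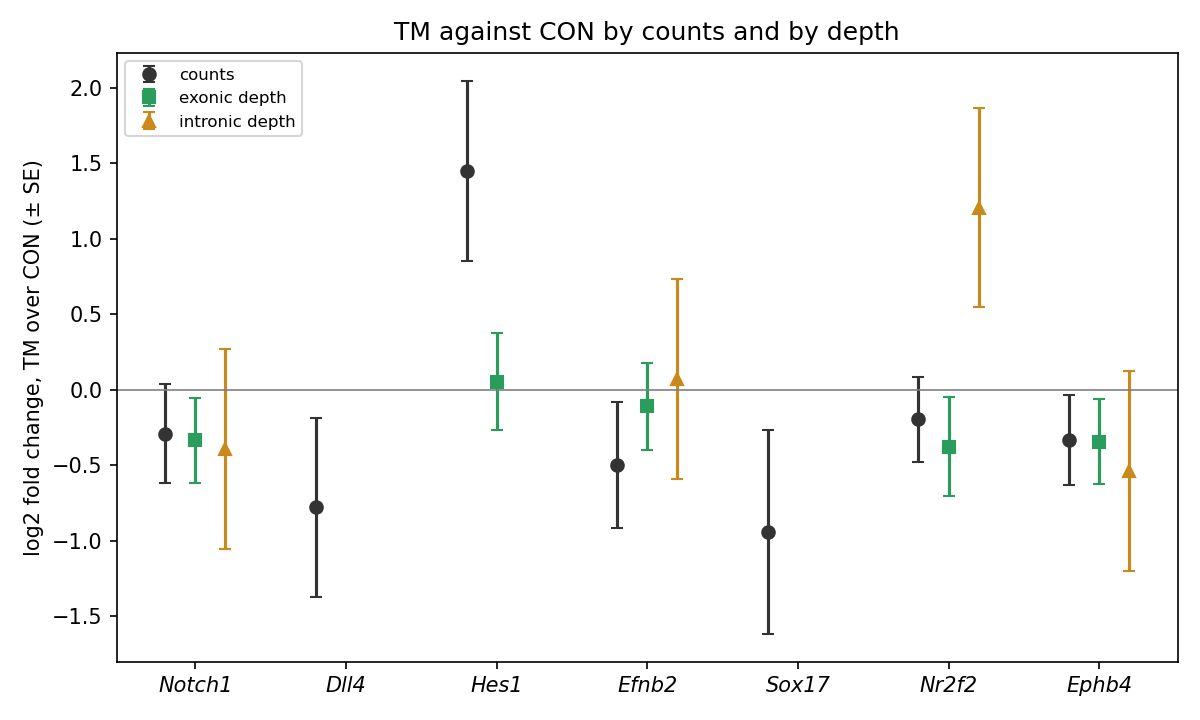
Log2 fold change of TM over CON, with its standard error, by counts (circles), exonic depth (squares) and intronic depth (triangles) for the genes each readout could test. The exonic values lie between -0.38 and 0.05, and the highest values are Hes1 by counts and Nr2f2 by intronic depth, neither of which passed its test.

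Intronic depth, taken at sites the table places in introns, could be tested for 4 genes, and limma called 0 of them, with 0 at an unadjusted p under 0.05. Among all genes 1.07% of 5539 were called, 40 higher and 19 lower in TM, or 25 and 4 after centring. The median of all genes was lower in TM by -0.15 on the log2 scale. Notch1 introns had scaled depths of 20.3 and 16.0 in CON and 15.9 and 11.8 in TM. Ephb4 introns had 48.8 and 27.9 in CON and 32.6 and 19.8 in TM. Efnb2 introns had 17.3 and 12.5 in CON and 17.5 and 13.7 in TM. Introns of Nr2f2 were far deeper, at 447 and 122 in CON and 575 and 504 in TM. The Nr2f2 log2 fold change was 1.21 ± 0.66 SE (limma adjusted p = 0.906). It was 0.27 with the mean in place of the median, and 1.35 after centring (limma adjusted p = 0.401). With the mouse as a block it stayed at 1.21 (limma adjusted p = 0.337). After centring and with the block, Nr2f2 was the 1 gene of the 4 at an unadjusted p under 0.05. With a library left out it ranged from 0.27 without EC2 CON to 2.15 without EC1 CON. Depth over its listed intronic sites ran from 5 to 1376 reads in EC1 CON and from 16 to 1473 in EC1 TM. In EC2 it ran from 6 to 1787 reads in CON and from 13 to 2691 in TM. The deepest listed exonic sites of Nr2f2 had 1485, 1428, 2470 and 3212 reads in the same order. Some sites placed in its introns thus reached depths near those of exonic sites. Whether they read unspliced RNA was not tested.

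Counts and depth differ in what they take from each gene. The count of a member was at most 9.91% of the read pairs that its exonic depth and exon length imply, and it was 0.669% to 0.718% for Ephb4, 1.14% to 2.14% for Nr2f2, 0.315% to 0.610% for Notch1 and 0.193% to 0.246% for Efnb2.  GENCODE vM21 places exons of a gene on the opposite strand over exons of Notch1 (1482 of 14232 bases), Dll4 (214 of 3852 bases), Gja5, Sox17, Nr2f2 and Ephb4, and over none of Hey1, Hes1, Efnb2 or Gja4. What these overlaps contribute to the counts was not tested.

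Around these 10 genes, the rest of the Notch pathway was read from lists of named genes, counted without the 10. Shares of all genes called were 4.39% higher and 3.35% lower by counts, and 5.19% higher and 4.56% lower by exonic depth. Receptors, ligands and core factors (13 genes) had 1 higher and 0 lower of 9 tested by counts, and 0 of 12 tested by exonic depth. The median log2 fold change was 0.05 by counts and 0.41 by depth, against 0.00 and 0.01 over all genes. The gene called by counts was Kat2a, a histone acetyltransferase, with counts of 8 and 6 in CON and 28 and 33 in TM (edgeR adjusted p = 0.0451). Its scaled depth of 125 and 116 in CON and 175 and 171 in TM did not pass (limma adjusted p = 0.279). The call by counts was lost with any of the 4 libraries left out, with adjusted p from 0.0802 to 0.223, and with DESeq2 (0.376). Notch4, the other endothelial Notch receptor, had scaled depths of 257 and 284 in CON and 300.5 and 317 in TM (limma adjusted p = 0.740). The ligand Jag1 had 254 and 227 in CON and 270.5 and 325 in TM (limma adjusted p = 0.582). Jag1 and Notch4 were thus about as deep as Notch1 and deeper than Dll4. Corepressors (10 genes) had 0 of 9 called in either readout, with medians of 0.08 by counts and 0.11 by depth.

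Genes that cut, glycosylate or turn over Notch proteins (22 genes) had 1 higher and 2 lower of 17 by exonic depth, with a median of -0.35, and 2 higher and 1 lower of 14 by counts, with a median of 0.21. Lfng, the Fringe enzyme that adds sugar to Notch and shifts which ligands it answers, was called lower in both readouts, by counts with edgeR only. Its scaled depth was 253 and 435 in CON against 87.3 and 73.3 in TM (log2 fold change -2.05 ± 0.32 SE, limma adjusted p = 0.000493). Its counts were 38 and 51 in CON against 17 and 22 in TM (log2 fold change -1.53 ± 0.43 SE, edgeR adjusted p = 0.0205), a call lost without EC2 CON (0.175) or EC2 TM (0.101) and with DESeq2 (log2 fold change -1.54, adjusted p = 0.203). Dtx3l, a ubiquitin ligase of the Deltex family that is also an interferon-stimulated gene, rose from scaled depths of 33.1 and 43.2 to 449 and 483 (limma adjusted p = 3.74e-07). Its CPM rose from 92.2 and 108 to 502 and 526 (edgeR adjusted p = 2.99e-06). Aph1b, a gamma-secretase subunit, fell by depth, from 25.5 and 25.8 to 7.59 and 10.4 (limma adjusted p = 0.00245, and 0.0983 without EC1 TM). Furin, the convertase of the Notch precursor, went opposite ways. Its counts were 89 and 92 in CON and 333 and 348 in TM (edgeR adjusted p = 0.000743), while its scaled depth was 497 and 544 in CON and 297 and 259 in TM (limma adjusted p = 0.0556).

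The upstream window of Lfng is printed because Lfng was called lower in both readouts and its window holds the RBPJ core word. The 7 windows searched above and that of Nrarp, a Notch target called lower by depth, do not hold it. Windows of Sox18, Prox1, Reln, Cldn5 and Ephb1, also called lower in both readouts, were not read singly. The word was in 21.59% of 32841 windows, and a link between it and the lower values of Lfng was not tested. In the Lfng window the word stands 135 and 108 bases before the start, once on each strand, and is set in capitals. The window is chr5:140607091-140607340 on the plus strand of GRCm38.p6.
Lfng upstream: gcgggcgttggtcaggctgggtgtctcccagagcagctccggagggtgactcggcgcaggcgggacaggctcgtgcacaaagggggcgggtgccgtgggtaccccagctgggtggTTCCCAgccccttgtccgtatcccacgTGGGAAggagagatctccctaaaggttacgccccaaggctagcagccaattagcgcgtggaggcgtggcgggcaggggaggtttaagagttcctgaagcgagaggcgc

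Of the other Notch targets (6 genes), 1 was lower of 4 by exonic depth, with a median of -0.82, and 0 of 4 were called by counts, with a median of -0.37. Nrarp, a Notch-induced inhibitor of Notch, fell from scaled depths of 252 and 356 in CON to 53.9 and 82.5 in TM (log2 fold change -2.17 ± 0.31 SE, limma adjusted p = 0.000273). Its counts of 33 and 40 in CON and 14 and 34 in TM did not pass (edgeR adjusted p = 0.168), and 2051 of its 2582 exon bases lie under an exon of Gm38287 on the opposite strand. Unc5b, a guidance receptor of arteries and tip cells, had scaled depths of 780 and 1039 in CON and 473 and 461 in TM (limma adjusted p = 0.0504). Hey2 and Heyl had no listed exonic site and at most 1 count in any library.

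Other arterial genes (21 genes) had 1 higher and 2 lower of 14 by exonic depth, with a median of -0.15, and 1 lower of 11 by counts, with a median of -0.08. Sox18, a SOXF factor of arterial and lymphatic endothelium, fell from scaled depths of 1364 and 1662 to 432 and 402 (limma adjusted p = 0.000489). Its counts fell from 47 and 55 to 18 and 19 (edgeR adjusted p = 0.00541, 0.0557 without EC2 TM and 0.0723 with DESeq2, where the log2 fold change was -1.78). Sox18 was the deepest SOXF gene here, while Sox17 was barely listed. Epas1, the hypoxia-inducible factor HIF-2alpha, fell by depth from 222 and 336 to 49.3 and 96.0 (limma adjusted p = 0.00124), with counts of 31 and 26 in CON and 14 and 13 in TM (edgeR adjusted p = 0.0850, and 0.0404 with the mouse as a block). Igfbp3 rose by depth from 224 and 407 to 538 and 893 (limma adjusted p = 0.0393), a call lost without EC1 CON (0.205) or EC2 TM (0.465).

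Other venous and lymphatic genes (15 genes, 14 of them in the count table) had 1 higher and 4 lower of 11 by exonic depth, with a median of -0.67. By counts 2 were lower of 9, with a median of -0.50. Prox1, the lymphatic transcription factor that binds COUP-TFII, fell from scaled depths of 459 and 559 in CON to 165 and 175 in TM (log2 fold change -1.57 ± 0.28 SE, limma adjusted p = 0.00171). Its counts fell from 72 and 75 to 32 and 35 (edgeR adjusted p = 0.0109), a call lost without EC2 CON (0.0545) or EC2 TM (0.115) and with DESeq2 (log2 fold change -1.45, adjusted p = 0.0836). Reln, an extracellular protein made by lymphatic endothelium, fell from 470 and 646 to 213 and 187 by depth (limma adjusted p = 0.00368, and 0.0714 without EC2 TM). Its counts fell from 80 and 96 to 27 and 37 (edgeR adjusted p = 0.00108). Vcam1, a leukocyte adhesion molecule, rose by depth from 39.1 and 54.3 to 112 and 142 (limma adjusted p = 0.00444, and 0.104 without EC2 TM). Apln, a secreted peptide of sprouting endothelium named after its values were seen, was also lower by depth (74.0 and 135 in CON, 29.6 and 57.2 in TM, limma adjusted p = 0.0358). Lyve1 and Flt4, further lymphatic genes, were not called by depth (limma adjusted p = 0.660 and 0.160). Of the lymphatic marker list 2 were lower of 6 by depth (Prox1 and Reln) and 3 of 5 by counts, where Mmrn1 joined them with counts of 108 and 122 in CON and 48 and 92 in TM (edgeR adjusted p = 0.0307). The Mmrn1 call was lost with any library left out (0.0665 to 0.195), with no filter (0.0547) and with DESeq2 (0.122). Of the endothelial list 1 was lower in each readout, the tight-junction gene Cldn5, which fell from scaled depths of 2236 and 3015 to 909 and 739 (limma adjusted p = 0.00148). Its counts fell from 47 and 57 to 23 and 22 (edgeR adjusted p = 0.0176), a call lost without EC2 CON (0.0997) or EC2 TM (0.165) and with DESeq2 (log2 fold change -1.51, adjusted p = 0.169). Of the fibroblast list, Thy1 was the 1 gene tested by depth and it fell from 1910 and 2028 to 739 and 672 (limma adjusted p = 0.00244, and 0.0568 without EC2 TM). At sites listed in all 4 libraries the depth calls of Aph1b and Vcam1 were lost (limma adjusted p = 0.0754 and 0.0939). The part of cell makeup in these differences was not tested.

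The VEGF input (13 genes) had 1 higher and 0 lower of 12 by exonic depth, with a median of 0.42, and 1 higher of 10 by counts, with a median of 0.01. The gene was Vegfa, the growth factor upstream of arterial Notch. Its scaled depth rose from 9.77 and 4.18 in CON to 93.3 and 126 in TM (log2 fold change 4.09 ± 0.36 SE, limma adjusted p = 1.47e-06). Its counts were 2 and 0 in CON and 35 and 47 in TM (edgeR adjusted p = 4.74e-05). The receptor Kdr, with scaled depths of 754 and 875 in CON and 655 and 564 in TM, did not pass (limma adjusted p = 0.418). Among ephrins and Eph receptors (13 genes), 1 was lower of 6 by exonic depth, with a median of -0.50, and 1 of 2 by counts, with a median of -1.63. It was Ephb1, a receptor of the B class like Ephb4. Its scaled depth fell from 28.9 and 41.8 in CON to 6.07 and 1.69 in TM (log2 fold change -3.44 ± 0.45 SE, limma adjusted p = 8.41e-05). Its counts were 10 and 19 in CON and 2 and 0 in TM (edgeR adjusted p = 0.00563), a call lost without EC1 CON (0.0651) or EC2 TM (0.201) and with DESeq2 (adjusted p = 0.122).

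**Figure D3:**
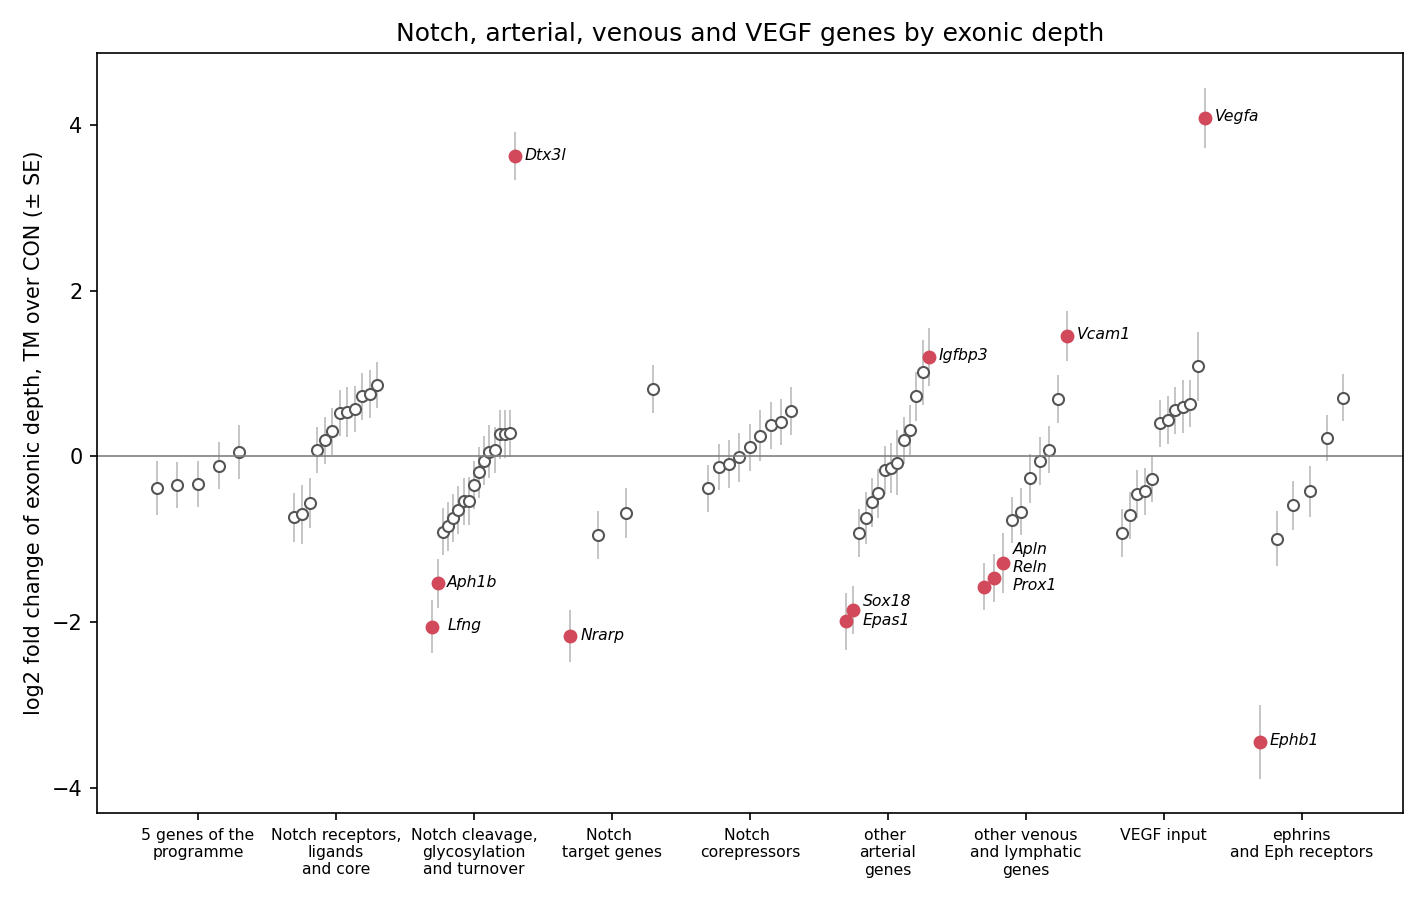
Log2 fold change of scaled exonic depth, TM over CON, with its standard error, for the genes each list could test. Filled red points passed at an adjusted p of 0.05 and open points did not. The 5 genes of the programme lie near 0, while Lfng, Aph1b, Nrarp, Sox18, Epas1, Prox1 and Ephb1 lie below -1.5 and Vegfa and Dtx3l above 3.6.

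Few sites of the 10 genes met the editing criteria. They held 1394 sites of the 1205261 in the table. At 1206 of them no library had more than 1 altered read. A site passed where 5 or more reads covered it, 3 or more of them were altered and the altered share lay between 0.05 and 0.95. In any library 3 sites passed, or 0.215% of their sites against 2.01% of all sites. All 3 lay in Ephb4. The other 9 genes had none, and 25.0% of the 20511 genes in the table had at least 1. With 10 genes, 1 holding such a site does not set the programme apart from that share. A site is listed from 1 altered read on, so the share by site depends on how many such sites a gene holds.

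The passing exonic site was in the 3′ UTR of Ephb4, at chr5:137374506. Altered reads were 3 of 35 in EC1 CON, 4 of 28 in EC1 TM, 5 of 34 in EC2 CON and 4 of 33 in EC2 TM. The rates were 0.0857, 0.143, 0.147 and 0.121, so TM was higher in EC1 and lower in EC2, and Fisher's exact test on reads gave p = 0.690 and 1 (adjusted p of 1 in both). Calls by this test were made at 0.959% of 9800 sites in EC1 and 2.46% of 10402 sites in EC2. At chr5:137354570, in an intron, altered reads were 1 of 78 in EC1 CON and 1 of 52 in EC1 TM, and 4 of 33 in EC2 CON and 4 of 49 in EC2 TM (two-sided Fisher's exact test in EC2, p = 0.708). At chr5:137370599, in an intronic LTR repeat of the kind MTE2b, EC1 CON had 3 altered of 49 reads and no other library listed the site. By a rate difference of at least 0.05 within a mouse, 1 of these sites was higher in TM (chr5:137374506 in EC1). A further 1 (chr5:137370599 in EC1) is higher in CON only if the unlisted TM library is set to a rate of 0, and its depth there is not known.

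In Ephb4 a larger number of sites were altered in nearly every read. At 20 sites from chr5:137353642 to chr5:137375629 over 0.95 of the reads were altered in all 4 libraries, with a depth of at least 5 in each. Of these 18 were in introns, 1 in an exon and 1 beyond the 3′ end. Median depths were 67.5 in CON and 44.0 in TM of EC1, and 46.5 in CON and 45.0 in TM of EC2. No other gene of the 10 had such a site, and Ephb4 ranked 99 among all genes by their number, with 234 genes holding 10 or more. At the exonic site, chr5:137360417, altered reads were 1089 of 1090, 902 of 902, 1380 of 1380 and 1336 of 1338 in the same order. The change leaves the amino acid as it is. A further site, chr5:137373770 in the 3′ UTR, was altered in 641 of 641 reads in EC1 TM and 802 of 802 in EC2 TM and was listed in neither CON library. Sites within 100 bases of it were listed in CON at depths of 829 to 1151. Across the table, with a depth of at least 20, 21 sites were over 0.95 in both TM libraries and unlisted in both CON libraries, and 5 the reverse. Whether the base is altered in CON at chr5:137373770 cannot be read from the table.

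The sequence around the 3 exonic Ephb4 sites is given to show the base altered in all 4 libraries, the base listed in TM alone and the base altered in part. Each line is the GENCODE vM21 transcript Ephb4-201 (mm10, plus strand) with the altered A in capitals.
Altered in all 4 libraries, chr5:137360403-137360431: gagtcctgcctgccAtgcccagccaacag
Listed in TM alone, chr5:137373756-137373784: gaacagagggggtcAgagacccaggattt
Altered in part, chr5:137374492-137374520: taaataaaaaaaaaAgggggatatgtctc
The partly altered A ends a run of A bases, and the other 2 do not.

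**Figure D4:**
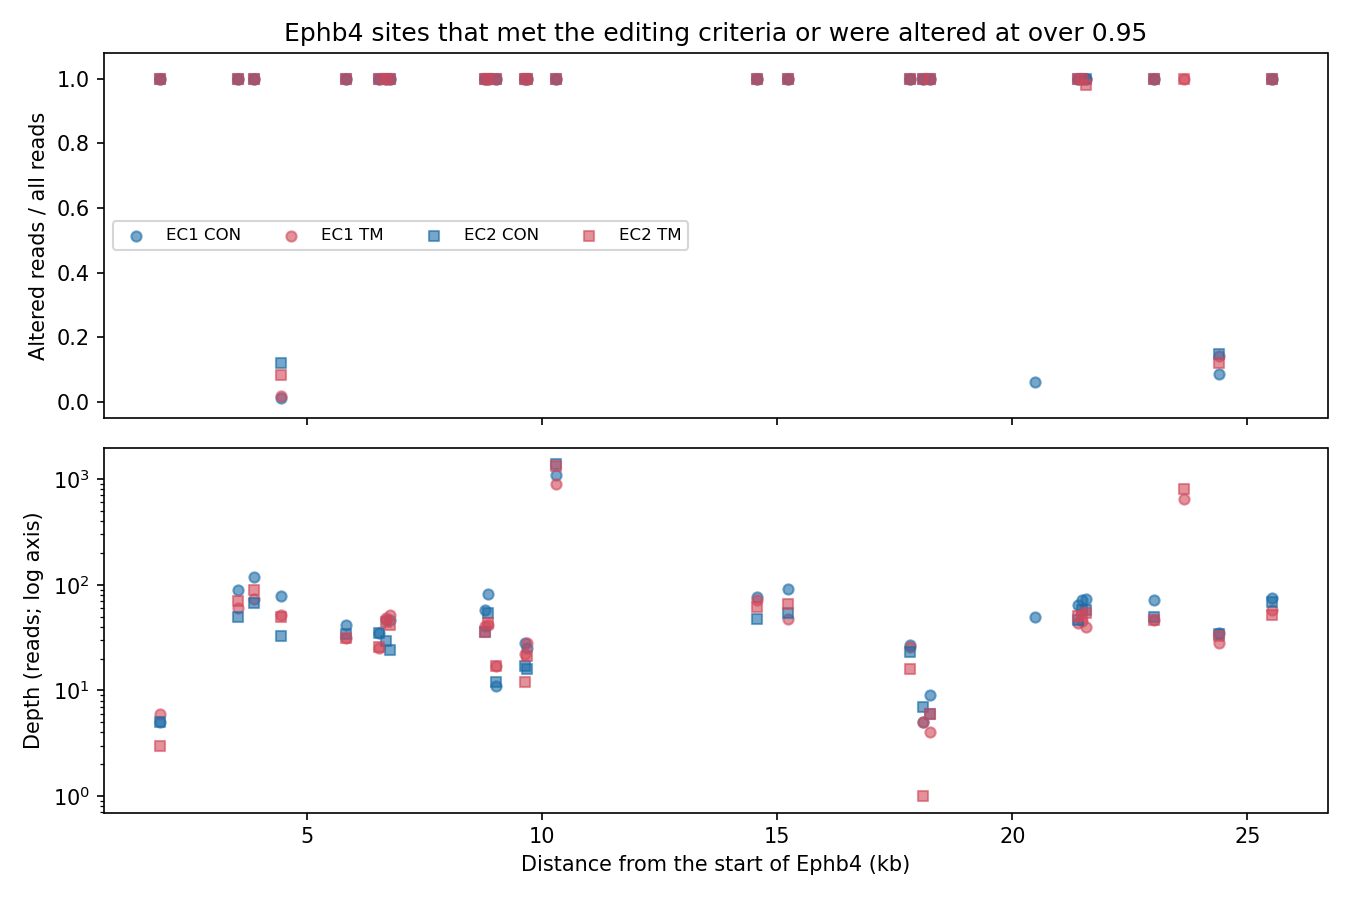
Ephb4 sites that met the editing criteria or were altered at over 0.95, by distance from the gene start in kb, with the share of altered reads (upper panel) and depth in reads (lower panel, log axis). Circles are EC1, squares EC2, blue CON and red TM. Sites sit near 1 in all 4 libraries or at 0.147 or less, and the site listed in TM alone stands at a depth of 641 and 802.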

How the data were processed

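RNA was depleted of ribosomal RNA and made into libraries with the KAPA RNA HyperPrep kit. The authors used Trimmomatic 0.38 for trimming, STAR 2.6.1a for alignment to mm10 and HTSeq 0.11.2, at its defaults, for counting. The deposited counts are raw. They called mismatches per library with BCFtools and deposited reads per base and the altered rate as a fraction. Columns of the site table were given to libraries through the table of selected sites of the study, where 1998 of 1998 shared sites held equal values. Deposited summary rows (over 99% of each count table) were left out of the library sizes.

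The test of counts was edgeR's quasi-likelihood test, with filterByExpr, TMM factors and condition as the only term (edgeR 4.0.16, R 4.3.3), that of depth limma 3.58.1 on log2 values of genes with at least 3 listed sites in every library, and that of altered reads Fisher's exact test over all sites within a mouse (scipy 1.17.1). All p were adjusted by Benjamini-Hochberg over the whole table and called at 0.05. DESeq2 1.42.0, other filters, scalings and library omissions were alternatives. Scripts were tested on simulated data. Same-numbered libraries came from the same mouse, and their deviations from the group means correlated over genes with r = 0.163 by counts, 0.1 by exonic depth and 0.2 by intronic depth. Both dishes of a mouse are not independent animals, so p-values of edgeR and limma rest on 2 mice per group. Both methods draw the variance of a gene toward that of all genes. In the main intronic fit the 4 genes of the programme that were tested shared an SE of 0.66, which is not the spread of each gene. Fisher's p-values measure the sampling of reads in 2 libraries, not the spread between mice.

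The 10 genes, the gene lists and the tests were chosen with earlier results of these data known. All 10 are named, and from each list the genes that passed by counts or exonic depth, up to 4 of the largest per readout. Other genes were named for background. Of the listed genes, 1 venous gene and 1 leukocyte marker are counted in their lists but not reported here by name or drawn. The floor of 3 counts covers counting error only. Gene positions came from GENCODE vM21.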

Additional observations from a re-analysis of the deposited data

How the results depend on the processing

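The number of genes called by counts was 612, against 1184 with the mouse as a block, 363 with DESeq2, 399 with DESeq2 and the block, and 436 to 574 over the libraries left out. By exonic depth it was 667, against 190 at sites listed in all 4 libraries, 1181 after centring, and 357 to 674 over the libraries left out (357 without EC1 TM and 370 without EC2 TM). By intronic depth it was 59, against 27 with at least 10 listed sites, 17 at sites listed in all 4 libraries, 33 with the mean, 29 after centring, 24 with the mouse as a block, and 36 to 65 over the libraries left out (36 without EC1 TM and 39 without EC2 CON). Genes of the programme called stayed at 0 in every setting run, except for 1 (Gja4) by counts with no filter, and each library left out gave 0. With the mouse as a block (pairing), edgeR called 0 of the 7 genes it tested, limma 0 of 5 by exonic and 0 of 4 by intronic depth, and DESeq2 0 of the 6 given an adjusted p. The call of Gja4 with no filter was not refitted with the block. The number of genes tested differed between settings, so the numbers called above cannot be compared as shares. By counts 7899 were tested, against 10219 with DESeq2 and 6543 with DESeq2 and the block. By exonic depth it was 6836, against 2480 at sites listed in all 4 libraries. By intronic depth it was 5539, against 2522 with at least 10 listed sites and 3469 at sites listed in all 4 libraries.

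Directions turned in a few genes that were not called. Notch1 by counts ranged from -0.74 to 0.038 and Efnb2 from -0.26 to 0.039 by exonic depth and from -0.16 to 0.30 by intronic depth over the libraries left out. Hes1 by exonic depth was -0.022 after centring and -0.37 to 0.48 over the libraries left out. Sites of the programme passing the editing criteria were 3, against 1 with at least 5 altered reads. Sites that differed by 0.05, with an unlisted library set to 0, were 2, against 0 with at least 5 altered reads, 1 where both libraries of a mouse had to list the site, and 0 at a difference of 0.10. Over single genes named in the text, 413 values kept direction and call, 46 lost a call, 12 gained one and 8 turned. The cause of these shifts was not tested. With 2 mice per group and counts under 50 for 7 of the 10 genes in every library, small differences in Dll4, Hey1, Gja5 and Sox17 were not detectable at this depth. For Notch1, Efnb2, Nr2f2 and Ephb4 the SE by counts was 0.28 to 0.42. Differences of the size fitted for them could not be told from 0 either.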
